A study of Mus musculus with 12 samples.

Results

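Transitional epithelial cells (TECs) are the non-sensory cells at the rim of the utricular macula, between the sensory epithelium with its hair cells and supporting cells and the roof that closes the utricle. They were taken here from single-cell RNA sequencing of mouse utricles at postnatal days 4 and 6 (P4 and P6), where 118 cells met the rule for TECs, of 632 cells that passed quality limits in the epithelial dissection and of 1155 deposited cells. A kept cell had at least 120000 reads, at least 950 genes above 0 and at most 10% mitochondrial reads. A TEC had at least 20 CPM (the cell's counts scaled to a total of 1000000) of at least 2 of the 3 markers Dclk1, Slc26a4 and Cldn4. Cells with 2 or more of 3 supporting cell markers (Dkk3, Nptx1, Agr3), 2 or more of 3 type I hair cell markers (Xirp2, Kcna10, Atp2b2, from 50 CPM) or 3 or more of 6 genes of roof cells (Igfbp6, Plet1, Il17rb, Rnase1, Cnmd, Steap4) were left out. The levels of these 15 genes chose the cells, and their values are given as a description only.

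Utricles came from wild-type FVB mice and from Pou4f3 DTR/+ mice, in which the diphtheria toxin receptor stands under the promoter of a hair cell gene and the transgene was not activated, and which cell came from which genotype is not stated. Both sexes were used. Tissue of 3 to 4 mice was pooled, treated with thermolysin and peeled, and single cells were sorted into plates for Smart-seq2, so an animal cannot be told from another within a pool. Each epithelial cell carries an age and a sequencing batch, with batches 1 to 5 at P6 and batch 6 at P4, and whether the batches hold different animals is not given in the sources used here.

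As background, TECs stand next to a sensory epithelium in which Notch signalling holds supporting cells apart from hair cells, and the pendrin gene Slc26a4, which encodes an anion exchanger of endolymph-bordering cells, marks them. Claudins such as Cldn4 seal the junctions between epithelial cells and thereby keep endolymph and perilymph apart. Dclk1 encodes a doublecortin-like kinase that is also known from the tuft cells of other epithelia. Roof cells are the thin non-sensory cells beyond the rim.

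TECs made up 18.7% of the kept epithelial cells (118 of 632, exact 95% interval 15.7% to 21.9%, which covers counting error only). Per batch they were 48 of 197 cells in batch 1, 1 of 32 in batch 2, 12 of 83 in batch 3, 11 of 80 in batch 4, 10 of 79 in batch 5 and 36 of 161 in batch 6. The share was therefore 22.4% at P4 (16.2% to 29.6%) and 17.4% at P6 (14.1% to 21.1%), and the P6 batches alone ran from 3.12% to 24.4%, on both sides of the P4 value. How many cells of a type were sorted also depends on how the epithelium was cut and peeled, which was not measured. Batch 2, with its single TEC, was left out of batch means, and every mean over batches below is over 5 batches.

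**Figure D1:**
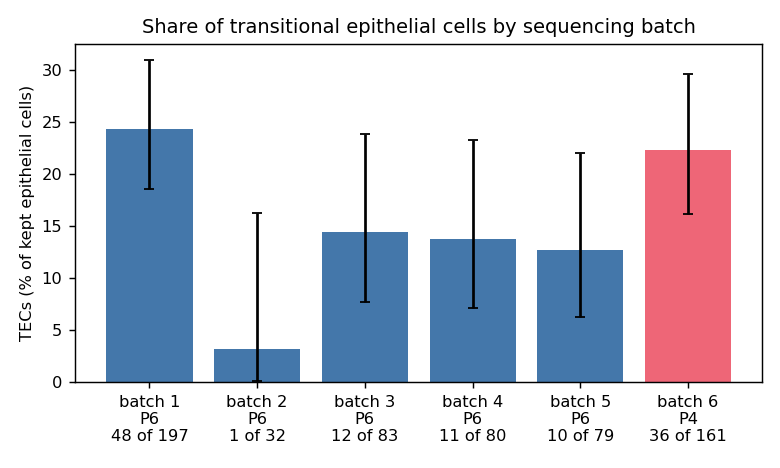
Share of TECs among kept epithelial cells of each sequencing batch, in percent on the y axis starting at 0, with exact 95% binomial intervals as bars and the cell numbers under each batch (blue, P6, and red, P4). Batches 1 and 6 hold the highest shares (24.4% and 22.4%) and batch 2 the lowest (3.12%, 1 cell of 32).

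A TEC held a median of 602915 reads (123535 to 1316290) and 3026.5 detected genes (1151 to 4860). Supporting cells chosen by their own markers (129 cells, at least 2 of Dkk3, Nptx1 and Agr3 and fewer than 2 TEC markers) had a median of 2973 genes, and roof cells (39 cells, at least 3 of the 6 roof genes) had 3103. At an equal depth of 200000 reads, to which cells were thinned, the medians were 2794 in 115 TECs, 2759.5 in 126 supporting cells and 2811.5 in 38 roof cells, so that the types lay closer together than the batch medians of TECs did (2746 to 3171 without thinning). No 2 TECs held identical counts.

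All 3 markers reached 20 CPM in 66 TECs, Dclk1 with Cldn4 in 31, Slc26a4 with Cldn4 in 15, and Dclk1 with Slc26a4 in 6. Cldn4 (chr5:134945119-134946934 in GRCm38) reached it in 112 of 118 TECs, Dclk1 (chr3:55242364-55539068) in 103 and Slc26a4 (chr12:31519827-31559969) in 87. In batches 1, 3, 4, 5 and 6, in this order here and below, the mean level of Slc26a4 was 956, 799, 608, 697 and 599.8 CPM, that of Dclk1 694, 830.2, 648, 1444 and 684 CPM and that of Cldn4 1931, 2253, 2291, 4697 and 4239 CPM. The limit of 20 CPM split few cells, since in only 2 TECs was the second highest marker under 40 CPM (22 and 28.2 CPM), and no epithelial cell that met the other limits missed it with a second marker of 10 to 20 CPM. The limits on other types mattered more. Of 168 epithelial cells with 2 or 3 TEC markers, 17 were left out for 2 or 3 supporting cell markers and 33 for 3 or more roof genes.

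Epcam, which the rule did not use, and which is an adhesion gene of epithelial cells, was detected in 100% of TECs at 2017 to 2754 CPM per batch. Markers of the cell types beneath the epithelium were at or near 0. The 3 mesenchymal markers (Otor, Dcn, Col1a2) summed to 0.142 to 19.9 CPM per batch in TECs and to 15203 CPM in non-epithelial cells, with 5 TECs at 20 CPM of 1 of them and none at 2. The 3 pericyte markers (Vtn, Aspn, Kcnj8) and the 3 melanocyte markers (Tspan10, Mlana, Trpm1) had no read in any TEC, which allows a share of up to 2.54% of cells. The 3 Schwann cell markers summed to at most 20.9 CPM per batch, those of glia to at most 3.39, those of endothelial cells to at most 1.10 and those of macrophages to at most 0.0322. Of the type II hair cell markers, Slc52a3 and Rasd2 had no read in TECs, and 15 further hair cell genes summed to 49 to 181 CPM per batch against 6776 CPM in type I hair cells. Of the roof markers that the rule did not use, Enpep was detected in 37 of 118 TECs and in 24 of 39 roof cells.

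Against supporting cells of the same batch, TECs were higher in Apoe, Igfbp4, Hspg2, Prelp and Gata2, among others. Roof cells held these genes as well. TECs were lower in Igfbp3, Nrcam and Cdh4 and in 10 of 15 tested genes of the Notch pathway. Roof cells also had little or none of Igfbp3, Nrcam and Cdh4. A gene was counted as higher or lower when the log2 difference of its mean levels, after adding 1 CPM, averaged 2 or more (4-fold) over 5 batches and had the same sign in all of them. Of 9468 genes detected in 10% of the cells of either type, 273 (2.88%) were higher in TECs and 419 (4.43%) were lower, and the median difference of all of them was 0.04. Since markers that differ between these types chose the cells, this count is a description with no test. Its error is the spread between batches. Differences are in log2 with the SD over 5 batches. Counts of listed genes against supporting cells are to be read beside the shares of all genes, 2.88% higher and 4.43% lower. A listed gene found in supporting cells alone also passed the filter and could hardly be counted as higher.

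Among the 12 genes with the largest positive difference that were detected in at least 50% of TECs, Itgbl1, an integrin beta-like gene, had 1260.4, 1383, 1208, 1818 and 629 CPM in TECs and 0, 48, 48.9, 17.4 and 0 CPM in supporting cells, a difference of 7.13 ± 2.59. Gata2, a zinc finger transcription factor, had 208, 176, 192, 135 and 195 CPM in TECs against 0, 0, 3.94, 0.117 and 0.126 CPM, a difference of 6.97 ± 0.98, and was detected in 75 of 118 TECs and 3 of 129 supporting cells. The groups of batches did not overlap for either gene. Apoe, an apolipoprotein that carries lipids, had 3072, 3146, 5035, 6194 and 3803 CPM in TECs and 108, 221, 514, 171 and 293 CPM in supporting cells (4.16 ± 0.80), and Apoa4, another apolipoprotein, differed by 6.79 ± 2.04. Igfbp4, which binds insulin-like growth factors, had 946, 975, 1705, 1354 and 1017 CPM against 36, 32.1, 149.9, 59.9 and 152 CPM (4.05 ± 0.91). Both genes were therefore present in supporting cells as well, at levels below the lowest TEC batch. The proteoglycan genes Hspg2 (perlecan), Gpc3 (glypican 3) and Prelp differed by 6.15 ± 2.26, 4.12 ± 0.67 and 3.95 ± 1.91. The carbonic anhydrase gene Car12 had 319.8, 266, 71.4, 473 and 505 CPM in TECs and 32.7, 0, 13.9, 0 and 12.3 CPM in supporting cells (5.55 ± 2.89). The others of the 12 were Tmem176a (6.99 ± 2.01), the prostaglandin D synthase gene Ptgds (4.84 ± 2.56) and the cyclin gene Ccnd2 (4.13 ± 1.82). Some of the 12 were as high or higher in roof cells. In CPM per kilobase of exon, roof cells had 38.2 of Hspg2 against 14.3 in TECs, and 235 against 210 of Ptgds. For Tmem176a these were 185 against 180, and for Gata2 29.7 against 33.5. The rest of the 12 were lower in roof cells. Without strand in Smart-seq2 reads, Tmem176a cannot be told apart from Tmem176b where their exons overlap, nor Apoa4, Ccnd2, Prelp, Fgf10, Hes5 and the marker Dclk1 from overlapping predicted genes, nor Slc22a3 from Plg. The same limit holds for other genes named here and below. Among them are Trpm5 (overlap with Tssc4), Cib2 (Sh2d7), Bmp6 (Txndc5), Acvr2a (Orc4), Dusp1 (Ergic1), Rarres2 (Lrrc61), Gins2 (Gse1) and the roof gene Il17rb (Actr8).

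**Figure D2:**
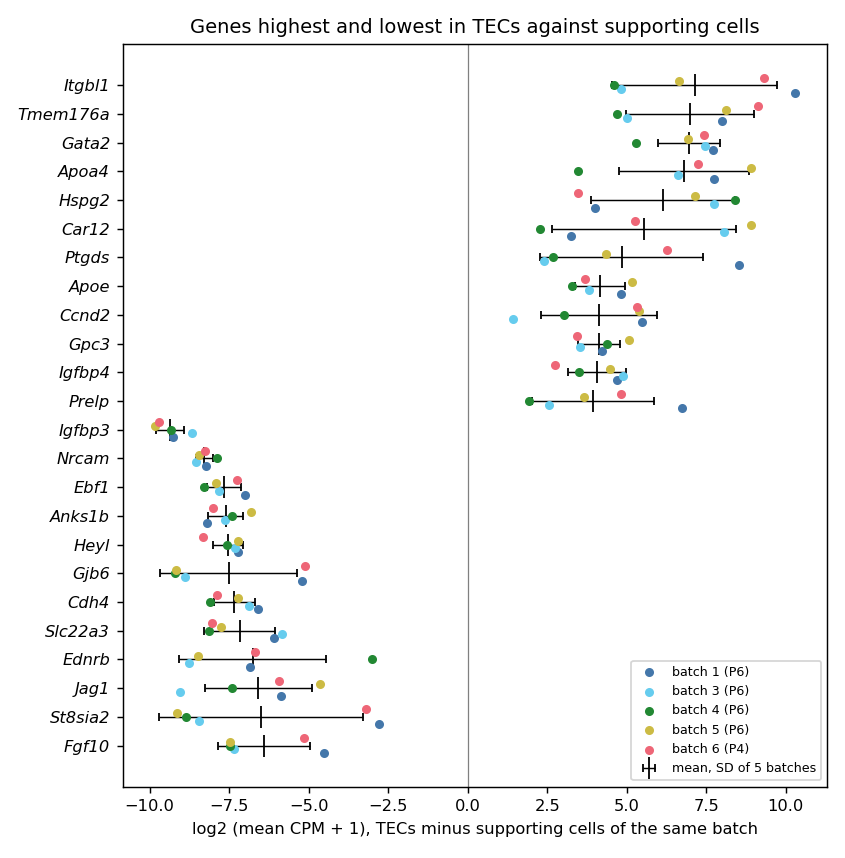
Log2 differences of mean CPM + 1 between TECs and supporting cells of the same batch for the 12 genes with the largest difference in each direction among genes found in 50% or more of the cells where they are higher (x axis), with one point per batch and the mean and SD over 5 batches in black. All points of the upper 12 genes lie above 0 and all points of the lower 12 below 0, and the spread between batches is wide for Itgbl1 (SD 2.59), Car12 (2.89) and St8sia2 (3.20) and narrow for Nrcam (0.26).

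The 12 genes with the largest negative difference that were detected in at least 50% of supporting cells were led by Igfbp3, which also binds insulin-like growth factors. It had no read in any of 118 TECs (up to 2.54% of cells allowed) and 619, 407, 645, 911 and 825 CPM in supporting cells, where 98 of 129 cells held it. Measured against a floor of 3 counts summed over all TECs, Igfbp3 was at least 17264-fold lower in TECs. Nrcam, a neuronal cell adhesion gene, had 301, 373, 233, 347 and 305 CPM in supporting cells, the transcription factor gene Ebf1 had 128, 224, 313, 241 and 149.6 CPM, and the cadherin gene Cdh4 had 94.8, 117, 274, 149 and 232 CPM. All of these had no read in TECs, and they were at least 7651-fold, 4859-fold and 4524-fold lower there. These bounds cover counting error only, since reads without molecular identifiers are not independent molecules. By number of cells, up to 2.54% of TECs may still hold any of these genes. Anks1b (-7.60 ± 0.54) and Slc22a3, an organic cation transporter gene (-7.17 ± 1.11), were detected in 2 and 2 TECs. Ednrb, the endothelin receptor B gene, had 3.53, 0, 33.2, 0 and 3.4 CPM in TECs against 517, 435, 272, 359 and 455 CPM in supporting cells (-6.76 ± 2.30). The growth factor gene Fgf10 had 7.29, 0.675, 0, 0 and 3.3 CPM against 188, 273, 177, 175 and 152 CPM (-6.39 ± 1.44), and St8sia2, a polysialyltransferase gene, differed by -6.49 ± 3.20. Gjb6, Jag1 and Heyl complete the 12 and are described with their groups. Low levels of the 12 were not particular to TECs. In CPM per kilobase of exon, roof cells had 0 of Igfbp3, Ebf1, Anks1b, Heyl, Gjb6, Cdh4, Slc22a3 and Ednrb. Of Nrcam, St8sia2, Jag1 and Fgf10 they had 0.450, 0.147, 0.927 and 5.39, against 23.4, 95.9, 60.7 and 41.9 in supporting cells.

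Most of the tested genes of the Notch pathway were lower in TECs than in supporting cells. Ligands such as Jag1 on one cell activate receptors such as Notch1 and Notch3 on the next, fringe enzymes such as Lfng and Mfng modify the receptors, and the cleaved receptor acts with RBPJ on targets of the Hes and Hey families. Of 18 measured members 15 passed the filter on detection, of which 10 were lower in TECs and none was higher, beside 4.43% and 2.88% of all genes. Detection in either type was enough to pass, and only 4 members were detected in 10% of TECs or of roof cells. Most of the 15 thus passed through supporting cells alone and could hardly be counted as higher. The filter therefore partly sets this split and the median of the list. The median difference of the 15 members was -3.90, and it was -5.31 with the members at 0 in all TECs set to their bound. Sox2, a progenitor and supporting cell factor, is one of the 10.

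Jag1 had 6.55, 0, 0, 8.11 and 5.7 CPM in TECs and 440.0, 525, 169, 228 and 405 CPM in supporting cells (-6.58 ± 1.69). Reads of it were found in 5 of 118 TECs and 112 of 129 supporting cells. Lfng had 0, 0, 0, 0 and 0.249 CPM against 30.9, 106, 79.7, 31.5 and 44.5 CPM (-5.66 ± 0.82), with reads in 1 TEC. Mfng, likewise with reads in 1 TEC, differed by -5.54 ± 0.77. For these genes the highest TEC batch lay below the lowest supporting cell batch. Among the targets, Heyl had 0, 0, 0, 0.156 and 0 CPM against 149, 158, 188, 169.8 and 322 CPM (-7.53 ± 0.47). Hes1 had 1.08, 0, 45.5, 0 and 10.9 CPM against 259, 95.4, 166, 149.7 and 175 CPM (-5.31 ± 2.35), and Hey1 had 22.3, 0, 0, 0.113 and 57.4 CPM against 213, 98.6, 122, 187 and 239.7 CPM (-5.24 ± 2.45). Both were low rather than absent, with reads in 8 and 11 TECs and in 83 and 55 supporting cells. Hey2 differed by -2.96 ± 1.15 and Notch3 by -3.86 ± 2.15, with the same sign in every batch although the ranges over batches touch. Hes5 and Sox2 had no read in TECs, while supporting cells held 78, 30, 22.1, 49.8 and 270.5 CPM and 36.1, 16.4, 23, 11.5 and 2.77 CPM of them in 17 and 23 cells. Against a floor of 3 counts summed over all TECs, Hes5 was at least 3076-fold and Sox2 at least 334-fold lower. These bounds take reads as independent and cover counting error only. By number of cells, up to 2.54% of TECs may still hold either gene. The receptor gene Notch1 was kept in TECs at 238, 419.8, 603, 224 and 358 CPM against 455, 358, 902, 648 and 616 CPM in supporting cells (-0.72 ± 0.64), and these ranges overlap. Roof cells held reads of Jag1 in 2 of 39 cells, of Hes1 in 3, and no read of Hes5, Heyl or Sox2.

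**Figure D3:**
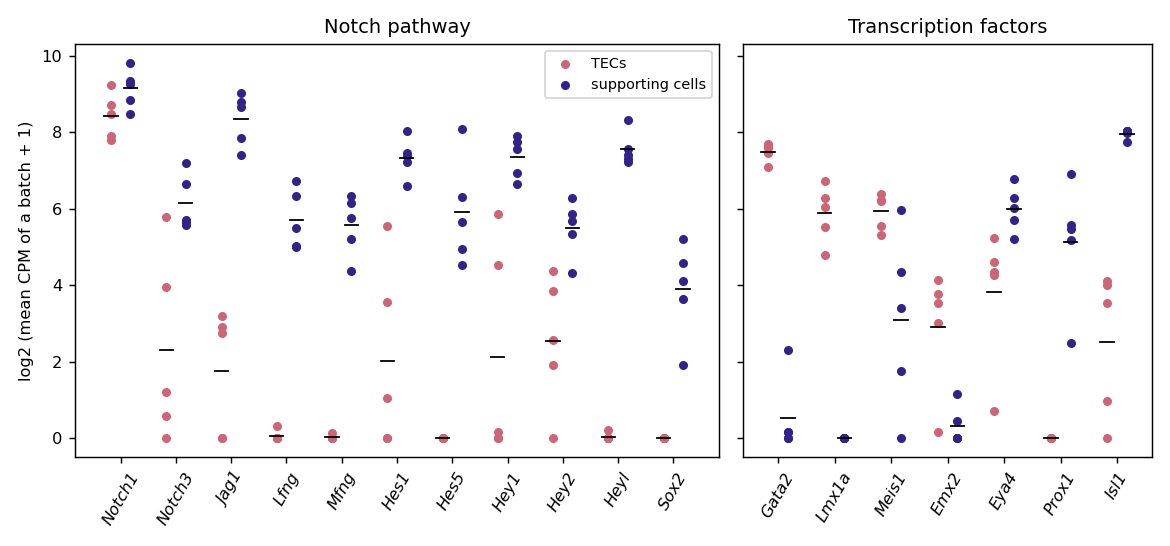
Levels of Notch pathway genes (left) and transcription factor genes (right) as log2 of the mean CPM of a batch + 1, with one point per batch for TECs (red) and supporting cells (blue) and the mean over 5 batches as a black line. The means of the 10 Notch genes from Notch3 to Sox2 lie lower in TECs, the batches of Notch1, Notch3 and Hey2 overlap, and Gata2 and Lmx1a lie at or near 0 in supporting cells.

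The promoters of 3 of these targets are shown because they hold the core motif that RBPJ is known to bind, TGGGAA, in either orientation. They are the 250 bases before the start site in RefSeq's annotation of GRCm38.p6, for Hey2 with 3 bases after it, read 5′ to 3′ along the gene, with TGGGAA or its reverse complement in capitals. Of the 10 lower members 6 had an entry in the promoter table used (250 bases before to 50 after the start), and 3 of the 6 hold the motif, which 25.6% of all 32851 promoters of that length also hold. The longer form CGTGGGAA, which contains the shorter one, occurs in 2 of the 6 (Hey2 and Lfng) and in 0.734% of all promoters.
Hes5, chr4:154960673-154960922, plus strand: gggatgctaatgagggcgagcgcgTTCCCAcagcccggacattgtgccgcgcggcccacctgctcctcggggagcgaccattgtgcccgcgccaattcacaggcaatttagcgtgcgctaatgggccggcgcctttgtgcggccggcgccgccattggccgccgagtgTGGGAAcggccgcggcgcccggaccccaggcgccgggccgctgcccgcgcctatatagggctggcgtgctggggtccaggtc
Hey2, chr10:30842781-30843033, minus strand: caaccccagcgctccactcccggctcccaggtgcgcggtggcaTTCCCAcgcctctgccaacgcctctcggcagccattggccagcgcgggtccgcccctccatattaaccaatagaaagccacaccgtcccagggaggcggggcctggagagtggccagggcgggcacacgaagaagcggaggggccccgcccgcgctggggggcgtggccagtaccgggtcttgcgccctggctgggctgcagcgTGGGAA
Lfng, chr5:140607091-140607340, plus strand: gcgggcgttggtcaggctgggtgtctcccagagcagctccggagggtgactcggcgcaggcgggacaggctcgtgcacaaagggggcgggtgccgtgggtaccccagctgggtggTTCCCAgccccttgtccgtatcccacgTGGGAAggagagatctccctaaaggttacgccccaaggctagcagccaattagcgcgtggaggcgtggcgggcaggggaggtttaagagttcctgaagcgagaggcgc
In Hes5 the motif starts 82 bases before the start site in the gene's direction and 226 before it on the other strand, and in Lfng 108 and 135 before. In Hey2 one copy spans the start site itself. A match of letters does not show that RBPJ binds there, and nothing in these data measured binding.

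Transcription factors with a role in the inner ear split both ways. Of 32 measured members 20 were tested, 4 were higher in TECs (Gata2, Lmx1a, Meis1, Emx2) and 4 lower (Sox2, Eya4, Prox1, Isl1), with a median of -0.01. Lmx1a, a LIM homeobox gene of non-sensory otic epithelium, had 45.4, 65.4, 106, 77 and 26.8 CPM in TECs and no read in supporting cells (up to 2.33% of cells allowed). Against a floor of 3 summed counts it was at least 1277-fold higher, a bound that takes reads as independent and covers counting error only. It was detected in 32 of 118 TECs. Meis1 and Emx2, both homeobox genes, differed by 2.84 ± 1.92 and 2.60 ± 1.48, with ranges over batches that overlap and with Emx2 at only 0.114 to 16.7 CPM in TECs. Isl1, a LIM homeobox gene of the sensory domain, had 15, 10.7, 0.977, 0 and 16.3 CPM in TECs against 260.0, 254, 261, 262 and 213 CPM in supporting cells (-5.44 ± 1.97). Prox1 had no read in TECs and 4.64 to 119.7 CPM per batch in supporting cells, and Eya4 differed by -2.17 ± 1.49.

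In the Wnt pathway, 3 secreted modulators were higher and 4 receptor genes were among the lower ones. Of 46 measured members 23 were tested, with 3 higher, 6 lower and a median of -0.34. The higher ones are secreted: Wif1, which binds Wnt proteins and inhibits them, Frzb, another secreted antagonist, and Rspo2, which enhances Wnt signalling through the Lgr receptors. Wif1 had 528, 445, 442, 789 and 159 CPM in TECs and 0, 0, 12.7, 0 and 0 CPM in supporting cells (7.96 ± 1.86). Frzb had 158, 303, 106, 204 and 148 CPM against 15.2, 22.4, 24.9, 4.38 and 19.5 CPM (3.43 ± 1.19), and Rspo2 differed by 3.19 ± 1.03. The lower ones include the receptors Lgr5 (-4.59 ± 1.89), Lgr6 (-3.96 ± 2.48), Fzd4 (-5.05 ± 1.76) and Lrp5 (-4.03 ± 1.28), the ligand Wnt7a (-5.07 ± 2.53) and the secreted Sfrp2 (-3.55 ± 2.90). Lgr5 was detected in 1 TEC and 18 supporting cells.

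Other signalling genes differed by member. In the TGF-beta list, 3 of 9 tested members were higher (Tgfb3, Tgfbr2, Tgfbr3), 1 was lower (Tgfb2) and the median was 0.86. The receptor gene Tgfbr2 had 163, 203, 226, 272 and 116 CPM in TECs and 4.49, 0, 18.9, 0 and 13.5 CPM in supporting cells (5.44 ± 2.34). The ligand gene Tgfb2 had 20.9, 29.3, 0.141, 0.647 and 32.6 CPM in TECs and 422, 417, 379, 383 and 325 CPM in supporting cells (-5.52 ± 2.41), while the ligand gene Tgfb3 differed by 3.12 ± 1.85. Of 9 tested members of the pleiotrophin and midkine list (median 0.13), the growth factor gene Mdk was higher in TECs, at 656, 522, 742, 696 and 899.8 CPM against 88.1, 40, 68.9, 98.8 and 154 CPM (3.06 ± 0.47), and the phosphatase receptor gene Ptprz1 was lower (-4.91 ± 3.07). Pleiotrophin itself (Ptn) had 459, 331, 482, 501 and 623 CPM in TECs and 855, 879.6, 699, 931 and 941 CPM in supporting cells (-0.87 ± 0.35), below the 4-fold limit.

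Of 11 tested FGF genes, Etv5 and Dusp6, which are known to respond to FGF signals, were higher (3.04 ± 2.04 and 2.12 ± 0.95) and the ligand Fgf10 was lower, with a median of -0.10. The receptor gene Fgfr2 differed by 4.73 ± 2.80, with 59.4, 168, 0, 34.3 and 43.8 CPM in TECs, and was not counted because neither type had a read of it in batch 4. Of 8 tested IGF genes, Igf1 (3.80 ± 2.39), Igfbp2 (3.42 ± 0.83) and Igfbp4 were higher and Igfbp3 lower (median 0.62). In CPM per kilobase of exon, roof cells had more Igf1 (20.3 against 7.65 in TECs) and Igfbp2 (646 against 256), and less Igfbp4 (118 against 272). Of 14 tested BMP genes none was higher and 3 were lower (Bmp6, Acvr2a, Id4), with a median of -0.22, and Bmp7 differed by 1.38 ± 0.74. None of 12 tested Hippo genes was counted (median -0.21).

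Junction genes were mostly shared. Of 19 tested tight junction genes, without the marker Cldn4, Cldn8 (3.17 ± 0.86) and Cgnl1 (2.89 ± 1.60) were higher, Marveld3 (-2.38 ± 2.26) was lower, and the median was -0.05. Per kilobase of exon, which allows genes to be compared, the level of Cldn4, whose reads chose the cells, was 1697 ± 707 CPM per kilobase in TECs (SD, n = 5 batches). The claudins that the rule did not use followed in the order Cldn9 (818 ± 177), Cldn3 (511 ± 201), Cldn7 (308 ± 88), Cldn8 (133 ± 21.7) and Cldn6 (81.1 ± 56). Between neighbours among these the batches overlapped, except that Cldn7 lay above Cldn8 in all batches. Cldn9, Cldn3 and Cldn7 differed from supporting cells by -0.11 ± 0.42, 0.45 ± 0.28 and -0.05 ± 0.54. The gap junction genes Gjb2 and Gjb6, the connexins of the supporting cell network and both deafness genes, were the 2 tested of 7 and both were lower. Gjb6 had 13.8, 0, 0, 0 and 13.8 CPM in TECs and 552, 467, 590.1, 579 and 506 CPM in supporting cells (-7.52 ± 2.15), and Gjb2 had 108, 82.2, 168, 29.7 and 51.1 CPM and 321, 558, 543, 489 and 362 CPM (-2.56 ± 0.99). Of 15 adherens junction and desmosome genes only the N-cadherin gene Cdh2 was counted, as lower (-3.36 ± 2.40, median of the list 0.09).

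Of 14 tested genes for the transport of ions into endolymph, Car12 was higher and 4 were lower (Atp1b3, Kcnq1, Kcnj10, Atp2b4), with a median of -0.33. Slc26a4 is on this list too, but chose the cells and was left out of the count. Kcnj10, an inward rectifier potassium channel gene, had 24.7, 0, 0, 41.9 and 10.2 CPM in TECs against 129, 230.3, 106, 85.1 and 51.5 CPM in supporting cells (-4.03 ± 3.05). The sodium pump subunit gene Atp1b1 had 671, 920.2, 499.8, 852 and 471 CPM against 201, 193, 165, 284 and 111 CPM, and its difference of 1.85 ± 0.30 lay just under the limit with no overlap of batches. Of 10 tested genes of the otoconial and tectorial matrix 4 were lower and none was higher (median -1.71). Tectb, a tectorin of the overlying membrane, had 0, 0, 0, 0.156 and 0 CPM in TECs and 2321, 4838, 3376, 7090.1 and 2601 CPM in supporting cells (-11.81 ± 0.59). Otog (otogelin) remained detected in 88.1% of TECs but at 979, 554, 1854, 1276 and 1084 CPM against 6958, 6109, 9157, 9017 and 7456 CPM (-2.84 ± 0.41). Sparcl1 and Otop1, with roles in forming otoconia, differed by -5.87 ± 0.84 and -5.45 ± 0.71. Of 16 tested basement membrane genes 3 were higher (Hspg2, Lamc1, Col4a4) and none was lower, with a median of 1.28.

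The epithelial keratin genes Krt18 (1.61 ± 0.33) and Krt8 (0.86 ± 0.33) were the 2 keratins tested and were not counted. Of 10 tuft cell genes 2 were tested and both were higher, Trpm5 (4.25 ± 1.84) and Ptgs1 (3.79 ± 1.94), in 19 and 20 of 118 TECs, while the tuft cell factor Pou2f3 had no read. Roof cells held both at like levels, 11.1 and 8.19 CPM per kilobase of exon against 8.82 and 8.79 in TECs. Of 10 tested cell cycle genes Ccnd2 was higher and the inhibitor gene Cdkn1a lower (-2.81 ± 1.16), with a median of -0.45. Of 16 immediate early and stress genes Ier3 was higher (2.19 ± 0.90) and Dusp1 lower (-2.23 ± 1.87), with a median of 0.03. Of 27 tested deafness genes 1 was higher (Cib2, 2.24 ± 1.54) and 11 were lower, beside 2.88% and 4.43% of all genes, with a median of -2.04. Among the lower ones were Gjb2, Gjb6, Otog, Ednrb, P2rx2 (-2.93 ± 1.06), Tmprss3 (-4.40 ± 2.02) and Ush1c (-2.71 ± 0.76). Gjb2, Gjb6, Eya4, Otog, Pcdh15, Kcnq1 and Kcnj10 were also counted in other lists, so this count is not separate from those. The deafness gene Slc26a4 chose the cells and was left out of this count. Of 2 tested hair cell genes, Pcdh15 was lower (-2.11 ± 2.02).

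Several genes high in TECs are also expressed in the mesenchyme beneath the epithelium. Non-epithelial cells held a mean of 583 CPM of Wif1, 8831 CPM of Ptgds, 1434 CPM of Igfbp4 and 191 CPM of Itgbl1. In most TECs these levels did not come with reads of mesenchymal markers. Of 54 TECs with at least 20 CPM of Wif1, 48 had no read of Otor, Dcn or Col1a2, and the median Wif1 level of the 54 was 690.3 CPM. The same held for 75 of 81 TECs with Ptgds, for 95 of 104 with Igfbp4 and for 89 of 99 with Itgbl1. Whether reads carried over from the mesenchyme add to these levels was not tested.

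Of 39 roof cells 33 also held 2 or 3 TEC markers, so that the number of roof genes alone set these apart. Reads of Cldn4 were found in 38 and of Dclk1 in 33 roof cells, but of Slc26a4 in only 3. Their comparison is over cells of all batches and has no measure of spread. Roof cells numbered 9, 4, 4, 6, 10 and 6 in batches 1 to 6. Batches 1, 4, 5 and 6 thus held at least 5 cells of each type, but no comparison within batches was made. The types were spread unevenly over the batches, with 48 of 118 TECs and 9 of 39 roof cells in batch 1. Differences between batches are therefore mixed with those between types here. TECs were higher in Ptn and Aldh1a3, among others. They were lower in Car2 and Slit3. Of 9851 genes, 480 (4.87%) were 4-fold higher in TECs and 269 (2.73%) were 4-fold lower, with a median of 0.15 over all.

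Ptn had a mean of 513 CPM over 118 TECs and 69.2 CPM over 39 roof cells, a log2 difference of 2.87. Aldh1a3, which makes retinoic acid, had 1093 and 113 CPM (3.26), and Etv1, a transcription factor gene, had 104 and 9.84 CPM (3.27). Pam, the peptide-amidating enzyme gene, Gpr37 and Sorbs2 differed by 2.86, 2.62 and 2.56. All 6 were also found in supporting cells. Sorbs2 was higher there, at 1097 to 2124 CPM per batch. On the other side, Car2, a carbonic anhydrase gene, had 22.3 CPM in TECs and 296 CPM in roof cells (-3.67), and Paqr6 had 23.9 and 248 CPM (-3.33). Slit3, a guidance ligand gene, Sostdc1, a secreted BMP and Wnt antagonist gene, Ahnak, and the long noncoding RNA gene Neat1 differed by -3.31, -2.79, -3.02 and -3.11. Among the lists, 3 of 9 pleiotrophin and midkine genes and 3 of 9 FGF genes were higher in TECs than in roof cells, 1 FGF gene was lower, and no tight junction, Notch or otoconial gene was counted in either direction (20, 4 and 8 tested).

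The 118 TECs themselves held 0 roof genes in 22 cells, 1 in 63 and 2 in 33, mostly because 84 TECs had 20 CPM of Cnmd. Cells with 2 or 3 TEC markers that were left out held 3 roof genes in 18 cases and 4 or more in 15. Enpep had a mean of 103, 138 and 111 CPM in TECs with 0, 1 and 2 roof genes and 473 and 618 CPM in those left out with 3 and with 4 or more. Ptn had 705, 527 and 357 CPM and then 110.0 and 32.2 CPM, and Aldh1a3 1210.1, 1166 and 875 CPM and then 202 and 24.3 CPM. The means of Ptn and Aldh1a3 were thus lower at each step. Anxa2, an annexin gene, was higher at each step within TECs, from 54.5 to 127 and 553 CPM, and had 1688 and 1579 CPM in the cells left out. It is not particular to roof cells, since supporting cells held 1521 CPM of it. On the side of the supporting cells, 48 TECs had none of the 3 supporting cell markers and 70 had 1, which was Agr3 in 62. Jag1 was detected in 1 of these 48 and 4 of these 70 TECs, in 1 of the 10 cells left out with 2 supporting cell markers and in all 3 of those with 3. Ush1c, a further supporting cell marker, had a median of 5.62 CPM over these 48 TECs and 68.6 CPM over these 70, of 62.1 CPM over the 10 cells and of 1385 CPM over the 3.

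TECs without Slc26a4 differed from those with it. Slc26a4 itself was rarer with more roof genes, with reads in 19 of 22, 51 of 63 and 20 of 33 TECs with 0, 1 and 2 of them. In the cells left out with 3 and with 4 or more, reads were found in 3 of 18 and 0 of 15. The split by Slc26a4 is therefore not separate from the limit that the rule set towards roof cells. Of the 97 TECs with Dclk1 and Cldn4, 66 had at least 20 CPM of Slc26a4 and 31 did not. Cells without it were found in every batch with more than 1 TEC, 8 of 39 in batch 1, 3 of 10 in batch 3, 4 of 9 in batch 4, 3 of 10 in batch 5 and 13 of 28 in batch 6. This split and the genes below were chosen after their values were seen. A gene was counted when the difference over all these cells was 4-fold and had the same sign in batches 1 and 6, which held at least 5 cells of each kind. Of 9338 genes, 440 (4.71%) were higher with Slc26a4 and 180 (1.93%) were lower, which are descriptions of these cells and were not tested.

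Without Slc26a4, TECs had more Car3, a carbonic anhydrase gene, with a mean of 2141 CPM and reads in 10 of 31 cells against 8.29 CPM and 2 of 66 cells with it. Zpld1, a zona pellucida-like gene, had 1614 CPM in 11 cells against 38.6 CPM in 3 cells. The matrix gene Matn4 had 141 CPM in 15 cells against 11.6 CPM in 3. Abca13, Anxa2 and Sned1 differed in the same direction, by -3.34, -2.95 and -2.95 in log2. Roof cells held 1997 CPM of Car3, 986 of Zpld1, 216 of Matn4, 1724 of Abca13, 1609 of Anxa2 and 134 of Sned1, in each case more than TECs with Slc26a4. Supporting cells also held more Anxa2 (1521 CPM), Matn4 (41.9 CPM) and Abca13 (122.5 against 114.9 CPM) than those TECs. They held less Car3, Zpld1 and Sned1 (0.187, 0.788 and 0.599 CPM). Car3 is also a gene of the mesenchyme (17443 CPM in non-epithelial cells). The 10 TECs with at least 20 CPM of it had no read of Otor, Dcn or Col1a2, and carry-over of Car3 reads was not tested.

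With Slc26a4, TECs had more Ntrk2, the receptor gene for brain-derived neurotrophic factor, with 379 CPM and reads in 42 of 66 cells against 74.9 CPM and 3 of 31 cells, and more Akap12, an anchoring protein gene, with 171 against 41.8 CPM. Car12 (1.68) and Wif1 (1.25) had the same sign in both batches below the 4-fold limit. Genes shared by both kinds were Epcam (2361 and 2018 CPM), Gata2 (212 and 199 CPM) and Lmx1a (58.8 and 51.2 CPM).

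**Figure D4:**
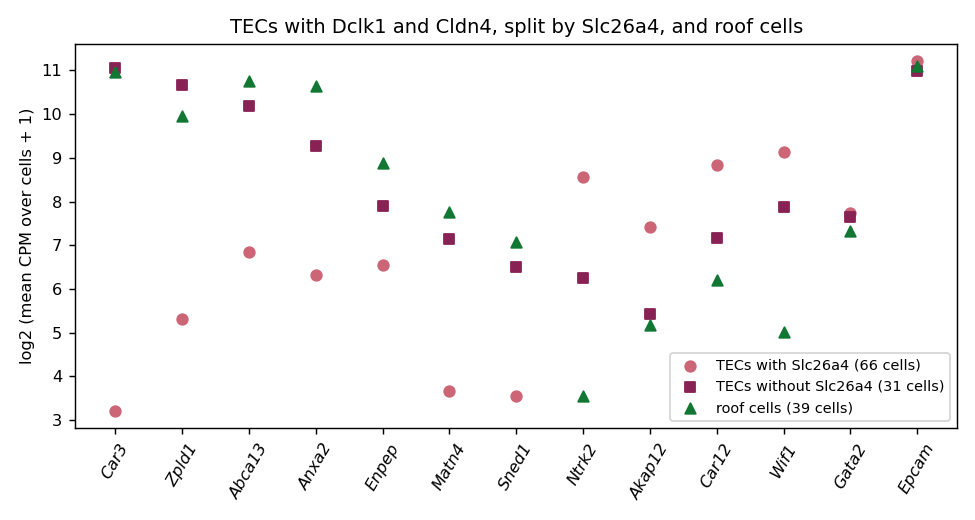
Mean levels over cells, as log2 of CPM + 1, in TECs with Dclk1 and Cldn4 that had Slc26a4 (circles, 66 cells) or did not (squares, 31 cells) and in roof cells (triangles, 39 cells). From Car3 to Sned1 the squares and triangles lie above the circles, from Ntrk2 to Wif1 they lie below them, and Gata2 and Epcam lie together.

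Between the ages, the 3 markers were within or next to the range of the P6 batches, and Wif1, Lmx1a, Enpep and Kcnj16 were lower in the P4 batch. P4 is a single batch, so age and batch cannot be told apart and no test is possible, and an exact permutation of 1 batch against 4 could not give a p under 0.2. A gene was counted when the P4 batch lay outside every P6 batch and 2-fold from their mean. Of 9486 genes, 1207 (12.7%) were higher and 500 (5.27%) lower at P4, with a median of 0.09. By the same rule 1076 of 9262 genes (11.6%) were higher and 402 (4.34%) lower at P4 in supporting cells, and 170 higher and 31 lower genes were shared, 14.1% and 6.20% of those in TECs and 15.8% and 7.71% of those in supporting cells. The rule also counted genes in both directions, at a similar rate, in simulated counts without any difference between ages. The simulation took its spread from TECs and supporting cells together and held no differences between batches. Its rate is therefore not an exact measure for TECs. With 1 batch at P4, the counts above are not read as genes that changed with age.

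Of the markers, Slc26a4 had 599.8 CPM at P4 and 608 to 956 CPM in the P6 batches, Dclk1 684 CPM against 648 to 1444 CPM, and Cldn4 4239 CPM against 1931 to 4697 CPM. Wif1 was lower at P4, with 159 CPM against 528, 445, 442 and 789 CPM in batches 1, 3, 4 and 5, a difference of -1.78 ± 0.39 (SD of the 4 P6 batches). Lmx1a had 26.8 CPM against 45.4 to 106 CPM (-1.42 ± 0.50), Enpep 59.2 CPM against 111 to 212 CPM (-1.40 ± 0.38) and Kcnj16, a potassium channel gene, 43.4 CPM against 153 to 247 CPM (-2.12 ± 0.29). In each of these the P4 batch lay below all P6 batches by more than their SD. Lying below all P6 batches is part of the rule that counted these genes, so it is no separate support for a difference between ages. Oc90, the main protein of otoconia, was higher at P4, with 2969 CPM against 960.4 to 2138 CPM (1.17 ± 0.54), and it was also higher at P4 in supporting cells (3.90). Of 14 tested cell cycle genes 7 were counted as higher at P4, among them the replication licensing genes Mcm6 (2.06 ± 3.14) and Mcm7 (2.08 ± 2.21), and 1 as lower. These had reads in 11 and 10 of 118 TECs and the P6 batches spread widely (0 CPM in batch 4).

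The 8 genes with the largest difference each way, among those detected in 25% of the TECs of the higher age, were mostly sparse. On the P4 side these were Zbed5 (3.88 ± 0.24), Gtf2ird1, Rpap1, Sp3, Zfp869, Fiz1, Gins2 and Dck, which had reads in 13 to 23 of 118 TECs. On the P6 side they were Kifap3 (1.32 CPM at P4 against 56.8 to 109 CPM, -5.07 ± 0.46), Rilpl1, the chemerin gene Rarres2 (4.67 CPM against 36.9 to 145 CPM, -3.85 ± 0.82), Cish, Pdxk, Glt8d1, Park2 and Dock9. In supporting cells Kifap3 differed by 1.01 and Rarres2, nearly absent there, by -0.08.

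**Figure D5:**
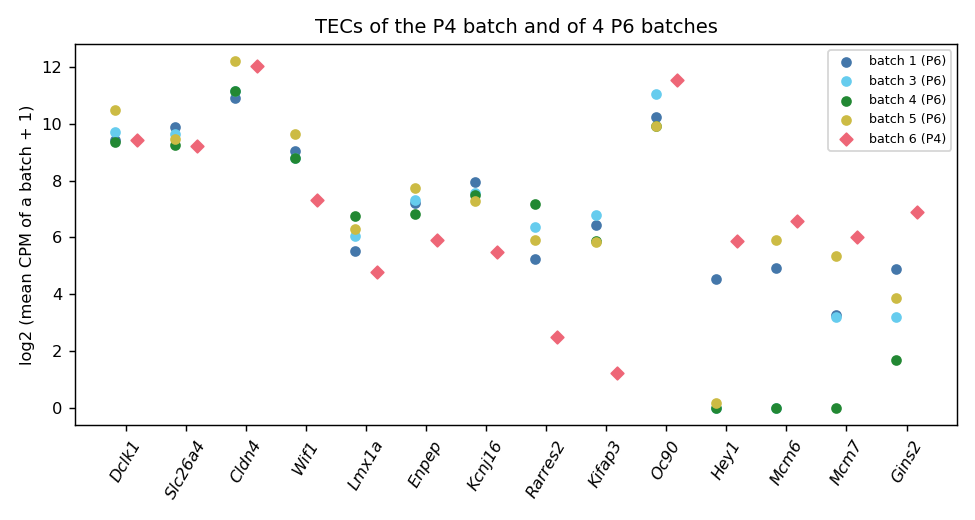
Levels of 14 genes in TECs as log2 of the mean CPM of a batch + 1, for the P4 batch (red diamonds) and 4 P6 batches (circles). The P4 batch lies within the P6 batches for Cldn4 and Dclk1, just under them for Slc26a4, below them from Wif1 to Kifap3, and above them from Oc90 to Gins2.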

How the data were processed

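Single cells of P4 and P6 mouse utricles were sorted with dead cells and, by size, doublets gated out, and were prepared with Smart-seq2. Per the labels and the study's methods, the authors aligned reads with STAR and estimated expected counts per gene with RSEM on GRCm38 (mm10), and the annotation release is not given in the sources used here. The deposited table holds expected counts of 1155 cells, unnormalised, and 80.5% of its nonzero values are whole numbers. A cell table gives the age, dissection and sequencing batch of each cell. The 12 samples are groups of cells by number only and stay unassigned, so age and batch were taken per cell.

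Counts were divided by the cell's total and multiplied to CPM. Spike-in rows were not taken out of that total or of the reads and detected genes per cell. They were left out only of the genes compared. Levels were averaged over the cells of a batch with at least 5 of them, and differences are log2 of (CPM + 1), which understates changes of low genes. No count test was run: markers that differ between the types chose the cells, and P4 is 1 batch. The spread given is the SD between batches, whose animals are not stated, so it may be technical. No doublet caller was run. Smart-seq2 carries no molecular identifiers, so exact binomial (Clopper-Pearson, 95%) intervals and the floor of 3 counts cover counting error only.

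Named genes were the 12 (supporting cells), 6 (roof cells) and 8 (age) with the largest difference each way among counted genes detected in at least 50% (age, 25%) of the cells of the higher group, without predicted genes, and members of fixed lists. Genes of the split by Slc26a4 and of the steps towards the neighbouring types were chosen after their values were seen. The members and lists were chosen with earlier results of these data known. The scripts were tested on simulated data. Alternatives were the marker limit, the exclusion rules, quality limits, thinning, the pseudocount, the detection filter and leaving out each batch. Coordinates are from the GENCODE annotation of GRCm38, and promoters from RefSeq (GRCm38.p6). Of 503 genes looked up 499 matched 1 annotated gene. Scripts used pandas 2.3.3, scipy 1.17.1 and numpy 2.4.6 under Python 3.11.15, with matplotlib 3.10.9 for plots.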

Additional observations from a re-analysis of the deposited data

Results flagged for a closer look

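For 5 of 40 genes looked at, the difference between TECs and supporting cells at P4 had the opposite sign to that in every P6 batch. The P4 values, as log2 of TECs over supporting cells, were 0.54 for Gtf2ird1, 1.13 for Dck, -5.47 for Kifap3, -0.23 for Rilpl1 and -2.08 for Pdxk. These genes had been picked for a large difference between the ages in TECs, P4 is a single batch, and the difference between the ages was not tested.

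In the non-epithelial dissection, which the comparisons do not use, 6 of 375 kept cells (1.60%, exact 95% interval 0.589% to 3.45%, counting error only) met the gene limits set for TECs. All 6 held Epcam, at 650.1 to 2897 CPM.

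None of 26 groups of batch values held a batch that lay far from the others.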

How the results depend on the processing

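Counts of genes depended on the settings. None of the 12, 6 and 8 genes with the largest differences each way changed sign, but this was largely set by their choice. Leaving out a batch could not reverse genes picked for the same sign in every batch or for a P4 batch outside all P6 batches. Another pseudocount could not reverse genes compared with roof cells or between ages, and the detection filter alters no difference. List medians near 0 did change sign: that of the cell cycle list reached 0.09 without batch 3, that of the otic transcription factors 0.39 without batch 4 and 0.19 after thinning, and that of the tight junction genes 0.13 in TECs with all 3 markers. Requiring all 3 markers left 66 TECs. With a pseudocount of 10 CPM, 110 genes were higher and 177 lower than in supporting cells, 101 and 63 than in roof cells, and 774 were higher at P4. Without the filter on detection, 1801 and 747 genes differed from roof cells and 2598 were higher at P4. TECs with all 3 markers had 466 genes lower than roof cells. Among alternatives chosen after seeing the data, TECs with no supporting cell marker had 775 genes lower than supporting cells over 4 batches, of which 331 were among the 419, and 215 higher, of which 124 were among the 273. With at most 1 roof gene 153 of the 273 and 367 of the 419 were counted again. TECs with all 3 markers had 145 and 350 of them. With 10 TECs drawn from each batch, 2636 genes were higher and 1103 lower at P4, and with detection in 50% of the TECs of either age 100 and 49. The median number of detected genes was 2794 after thinning and 2600.5 when counted from 5 reads. Leaving out 1 batch at a time gave 328 to 364 genes higher and 473 to 575 lower than in supporting cells, of which 241 to 261 were among the 273 and 366 to 412 among the 419. It gave 1387 to 1522 genes higher and 579 to 744 lower at P4, and medians of 2961 to 3145 detected genes. Of the values of named genes 514 of 576 stayed within a limit and 62 moved by more, and of the medians of lists 141 of 143 and 2. The limit was the SD between batches, except that genes compared with roof cells had a fixed limit for want of a spread. For lists it was the median SD of the single members, which is not the spread of a list median between batches. The cause of these shifts was not tested. No paired analysis was possible because the labels give the samples neither groups nor replicate numbers, and TECs were compared with supporting cells within batches instead. Depth limits low genes: 3 counts over all 118 TECs are 0.0409 CPM, and a gene with no read in them may still be detected in up to 2.54% of such cells.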
